A study of Mus musculus with 8 samples.

Results

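Replication-dependent core histone genes are the many near-identical copies that encode H2A, H2B, H3 and H4 for newly made DNA. They were taken as the protein-coding genes whose mouse symbol starts with Hist1h2, Hist1h3, Hist1h4, Hist2h, Hist3h or Hist4h. The rule found 61 of 21416 protein-coding genes, with 18 for H2A, 18 for H2B, 12 for H3 and 13 for H4. It used gene names and no measured value. The genes were followed in KRPC-A cells, a mouse pancreatic tumour line whose source animals were genetically engineered on C57BL/6. Wild-type (WT) cells for Gcn2 and Gcn2 knockout (KO) cells spent 1 h in medium with all amino acids (replete) or in medium lacking leucine (leucine-free). GCN2, encoded by Eif2ak4, is a kinase that senses uncharged tRNA. RNA-seq and ribosome profiling, which sequences the mRNA pieces covered by ribosomes (footprints), gave 8 libraries in 8 groups of 1 library each. How Gcn2 was knocked out and whether a clone was used is not given in the sources used here.

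An octamer of H2A, H2B, H3 and H4 carries the DNA of each nucleosome, the unit of chromatin. Cells make most of these proteins in S phase, when replication needs them, and an excess of free histone is harmful. Their mRNAs usually have no introns and end in a conserved stem-loop in place of a poly(A) tail. The stem-loop binding protein SLBP takes part in the processing, translation and decay of these mRNAs, which are degraded rapidly when DNA synthesis stops.

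With 1 library per group there is no spread between cultures and no test between conditions. Levels are given as normalised read counts on the CPM scale, which sets each count against the protein-coding reads of its library, and changes as log2 ratios. All intervals are 95% intervals that cover counting error only. A gene is called higher or lower when its ratio is at least 2-fold and its interval leaves out 0. A gene is measured in an assay when its mean count over the 4 libraries is at least 30. Library totals were 49136610 to 60680169 reads in genes for RNA-seq and 2671491 to 9993211 for footprints, the lowest being the WT leucine-free footprint library. Eif2ak4 RNA stood at 85.7 and 69.7 CPM in WT cells and at 13.6 and 16.7 CPM in KO cells. The labelled tumour origin was checked against markers. Krt8, Krt18, Krt7, Cdh1 and Sox9, 5 of 8 duct and epithelium genes, were at 1 CPM or more in all 4 RNA-seq libraries, and Epcam was at 0. The sum of all 8 genes differed between libraries, from 234 to 1089 CPM. None of 6 acinar and none of 5 immune and endothelial genes reached 1 CPM in all 4, and 2 of 5 fibroblast genes (Col1a1 and Pdgfrb) did.

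Of the 61 genes, 48 lay in the cluster on chromosome 13 (13 for H2A, 15 for H2B, 9 for H3 and 11 for H4), 10 on chromosome 3, 2 on chromosome 11 and 1, Hist4h4, on chromosome 6 at chr6:136801553-136804415 (GRCm38). Measured genes numbered 47 in RNA-seq, 46 in footprints and 45 in both. The other 13 were measured in neither assay, and 6 of them (Hist1h2ap, Hist2h2aa1, Hist2h2aa2, Hist2h3c1, Hist2h3b and Hist2h2bb) had no count in any of the 8 libraries. By its default settings the counting dropped reads that match more than 1 place, so a level here is that of the sequence unique to a copy, and a 0 does not show that a copy is silent. Levels of the other near-identical copies are uncertain for the same reason. Across the members, 12 had no RNA count in all 4 libraries, where 3 counts would stand for 0.0714 to 0.0967 CPM.

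The testis forms fell among these. Hist1h2aa had no RNA count and 4, 1, 2 and 5 footprints, in the order used throughout (replete then leucine-free medium, first for WT and then for KO cells). Its divergent partner Hist1h2ba had no RNA count and 5, 4, 7 and 3 footprints. Hist3h2ba had 0, 3, 0 and 0 RNA counts and 7, 2, 3 and 1 footprints. All are at or near the counting floor, and no ratio is given for them. Hist3h2a was measured in RNA only, at 0.619, 1.06, 1.20 and 1.42 CPM, and had 1, 2, 0 and 0 footprints.

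The start regions of the genes were read from RefSeq (GRCm38.p6, 250 bases before to 50 after the start), which held 56 of the 61. No entry was found for Hist1h2bc, Hist1h3a, Hist1h3f, Hist2h2be and Hist2h4. The 4 stretches below belong to the gene with the highest RNA per kb in each class. They are shown because the classes differ in their promoter motifs. Whether the motifs relate to the ratios given later was not tested. Each runs 5′ to 3′ on the gene's own strand, from 120 bases before the start to 50 after it. Capitals mark the CCAAT box (CCAAT, or ATTGG where it lies on the opposite strand), the TATA box (TATAAA) and GGTCCG, a core of the H4 subtype element. Hist2h2ac (H2A) is chr3:96220831-96221000 on the minus strand, Hist1h2bj (H2B) chr13:22043078-22043247 on the plus strand, Hist1h3h (H3) chr13:21717508-21717677 on the plus strand and Hist1h4n (H4) chr13:21832148-21832317 on the minus strand.
Hist2h2ac: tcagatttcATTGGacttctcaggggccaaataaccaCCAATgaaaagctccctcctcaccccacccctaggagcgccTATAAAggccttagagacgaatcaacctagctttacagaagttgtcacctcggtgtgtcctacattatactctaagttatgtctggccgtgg
Hist1h2bj: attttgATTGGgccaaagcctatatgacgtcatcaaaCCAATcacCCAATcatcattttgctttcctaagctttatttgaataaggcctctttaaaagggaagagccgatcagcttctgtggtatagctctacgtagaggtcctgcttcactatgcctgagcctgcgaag
Hist1h3h: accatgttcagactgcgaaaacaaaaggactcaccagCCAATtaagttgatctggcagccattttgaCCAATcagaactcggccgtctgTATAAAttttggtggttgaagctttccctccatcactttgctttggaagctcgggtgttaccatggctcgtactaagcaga
Hist1h4n: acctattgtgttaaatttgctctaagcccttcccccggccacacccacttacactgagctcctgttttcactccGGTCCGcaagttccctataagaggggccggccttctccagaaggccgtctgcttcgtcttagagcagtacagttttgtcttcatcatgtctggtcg

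CCAAT boxes stand 83 bases before the start in the H2A, H2B and H3 stretches, each of which has at least 1 more, and the H4 stretch has none. In its place Hist1h4n has GGTCCG 46 bases before the start. Over all members this split was nearly complete. On either strand of the 300 bases, CCAAT was found in 18 of 18 H2A, 16 of 16 H2B and 10 of 10 H3 promoters but in 3 of 12 H4 promoters (Hist1h4a, Hist1h4c and Hist1h4d), against 37.4% of the 32851 promoters in the table. GGTCCG was in 11 of 12 H4 promoters, all but Hist1h4a, and in 2 of the other 44 (Hist1h2bh and Hist1h3i), against 8.25% of all promoters. The octamer ATTTGCAT was in 7 H2A and 6 H2B promoters and in no H3 or H4 promoter, against 1.74% of all. TATAAA was in 31 of 56 members (55.4%) and in 13.6% of all promoters. The motifs were searched separately, and in the 4 stretches no site overlaps another. H2A and H2B genes often share their promoter, so their matches are not independent. A match describes letters in a window and does not show binding.

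In RNA-seq the core histone genes together made up 0.0550%, 0.119%, 0.0777% and 0.128% of protein-coding counts. Among footprints their share was far larger, at 1.50%, 2.17%, 1.21% and 2.16%. In both assays and in both genotypes the leucine-free library had the larger share. H2B held the largest part of the RNA, with summed levels of 284, 581, 341 and 541 CPM. H4 followed at 132, 381, 254 and 500.1 CPM. H3 gave 62.0, 133, 111 and 165 CPM and H2A 70.7, 94.3, 63.3 and 86.3 CPM. Among footprints H4 led in every library, at 6186, 8353, 4838 and 7953 CPM. Footprints of H3 stood at 3409, 5658, 2722 and 5709 CPM, those of H2B at 3383, 4472, 2772 and 3699 CPM and those of H2A at 2287, 3539.9, 1821 and 3520.0 CPM. Thus the order of the classes differed between the assays. How RNA was selected for RNA-seq is not given in the sources used here, and its part in these shares was not tested.

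**Figure D1:**
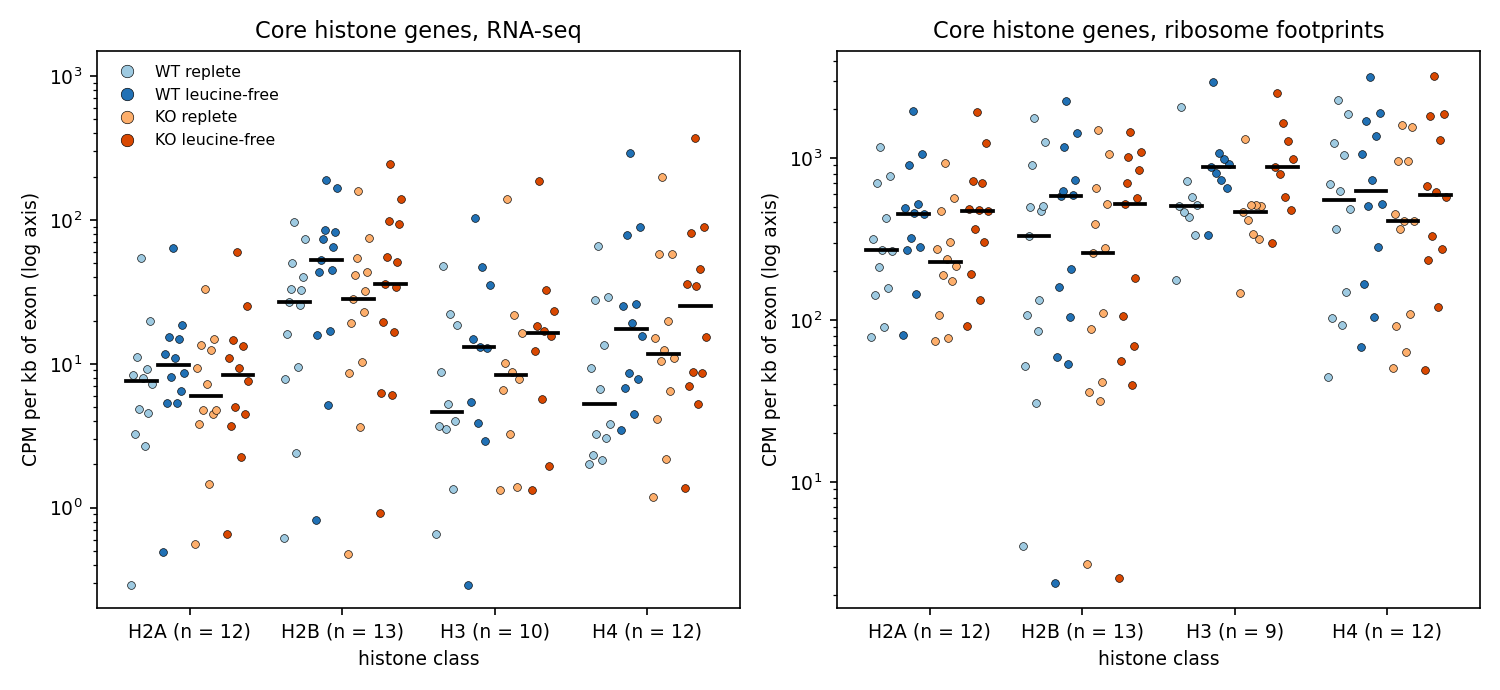
RNA-seq level (left) and footprint level (right) of each measured core histone gene, in CPM per kb of exon on log axes, by histone class and library. A point is a gene and a bar the class median, and each colour is 1 library. In RNA-seq the H2A genes cluster lowest with few above 20 CPM per kb, while among footprints most genes of every class stand above 100 CPM per kb.

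Levels of single genes are given per kb of exon. Reads shared between copies were left out, so the order of copies is that of their uniquely mapped reads. On this scale the leading RNA in H2A was Hist2h2ac, at 54.3, 63.5, 32.9 and 59.8 CPM per kb. Next came Hist1h2ah at 19.7, 18.6, 12.4 and 25.2 and Hist1h2ag at 11.2, 14.8, 9.31 and 10.9 CPM per kb. Hist2h2ac exceeded both in every library. The H2B class was led by Hist1h2bj, at 96.2, 191, 160.2 and 245 CPM per kb. Hist1h2bb gave 73.5, 167, 74.7 and 94.2 CPM per kb and Hist1h2bn 25.6, 64.9, 41.2 and 139 CPM per kb. These 3 did not keep their order, since Hist1h2bn passed Hist1h2bb in the KO leucine-free library.

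Within H3 the RNA of Hist1h3h was highest, at 48.0, 104, 139 and 187 CPM per kb. Hist1h3c stood at 22.1, 47.3, 21.8 and 32.7 CPM per kb and Hist1h3i at 18.8, 35.5, 16.3 and 23.1 CPM per kb. The KO libraries held the largest levels of Hist1h3h, whereas Hist1h3c and Hist1h3i were highest in the WT leucine-free library. Hist1h4n led H4 and all members by its mean, at 65.4, 289.7, 198 and 374 CPM per kb. Hist1h4f gave 29.3, 88.8, 57.7 and 89.1 CPM per kb and Hist1h4d 27.6, 78.0, 58.0 and 81.2 CPM per kb. In all 3 H4 genes the WT replete library was the lowest of the 4.

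By footprints per kb other copies led. The highest means were those of Hist1h4f in H4 (2267, 3162, 1604 and 3206 CPM per kb), Hist1h3i in H3 (2078, 2929.7, 1305 and 2535 CPM per kb), Hist1h2bb in H2B (1768, 2262, 1493 and 1446 CPM per kb) and Hist1h2ab in H2A (1166, 1940.4, 930.1 and 1929 CPM per kb). In every one of these the KO replete library was lower than both leucine-free libraries, except for Hist1h2bb, whose KO leucine-free library was the lowest. Exonic length includes the untranslated ends that footprints largely leave uncovered, so the per-kb level of a gene with a long annotated end is low for that reason too.

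The footprint count over the RNA count of the same gene, an index of ribosome load per RNA read, set the core histones apart from most genes. Relative to the median of 9097 genes measured in both assays, the median log2 footprint-to-RNA ratio of the 45 members was 4.82, 4.10, 4.63 and 4.96 in the 4 library pairs. Above the 95th percentile of all genes stood 43, 40, 38 and 36 of the 45, and above the 99th percentile 29, 28, 25 and 27. No member lay below the median gene in any pair. This level was not set against that of short genes. The main linker H1 histone genes, given further below, also had far higher CPM in footprints than in RNA. H3 had the highest class median (6.70, 6.33, 5.98 and 6.59) and H2B the lowest (3.65, 3.24, 2.69 and 2.68). H2A stood at 4.84, 5.34, 4.68 and 5.42 and H4 at 6.21, 5.04, 5.19 and 5.20. The 2 counts of a ratio come from different kinds of library. Less histone RNA captured and more ribosomes per RNA cannot be told apart in such a ratio.

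**Figure D2:**
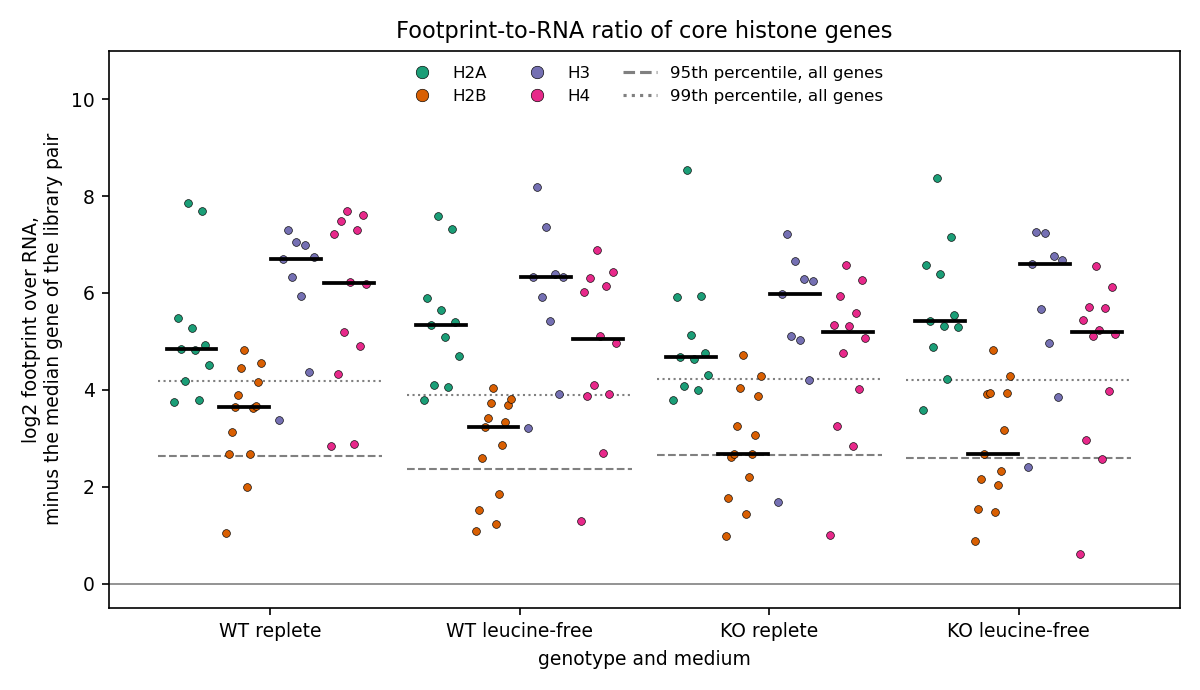
Log2 footprint-to-RNA ratio of the 45 core histone genes measured in both assays, minus the median gene of the same library pair (0 on the axis). Points are genes coloured by class, bars are class medians, and dashed and dotted lines mark the 95th and 99th percentile of 9097 genes. H2B genes sit lowest, and no gene falls below 0.

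Copies of the same class spread widely on this scale, which rests on the uniquely mapped reads of each copy. The part of unique sequence in that spread was not tested. Hist1h2ai reached 7.68, 7.59, 8.53 and 8.37 on the log2 scale over the median gene, with 54, 85, 22 and 45 RNA counts against 2484, 994, 1446 and 2096 footprints. Hist1h4c stood at 7.49, 6.43, 5.94 and 5.68. At the other end Hist1h2bc, the lowest member in both WT pairs, stood at 1.05, 1.08, 1.43 and 1.54, Hist1h4n stood at 2.84, 1.29, 1.01 and 0.60, Hist1h2bh at 1.99, 1.24, 0.98 and 0.89 and Hist1h3h at 3.37, 3.21, 1.69 and 2.40. In H3 and H4 the gene with the most RNA per kb had the fewest footprints per RNA read of its class. In H2A this held for Hist2h2ac except in the WT replete pair. In H2B it did not hold, since Hist1h2bj stood at 3.67, 2.86, 2.69 and 2.15. RNA is the divisor of this ratio, so the RNA level and the ratio are not independent. Members with an annotated exonic length of 1000 nt or more (n = 10) had lower medians (3.54 to 4.22 over the 4 pairs) than the 35 shorter ones (4.72 to 5.16).

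RNA of most core histone genes was higher after 1 h without leucine in WT cells. Called higher were 23 of 47 measured genes and 1 was called lower, against 0.842% and 0.86% of all 10814 measured genes. The members' median log2 ratio was 1.00, close to a doubling, and that of all genes was 0.0048. In 41 of 47 the interval lay above 0, as it did in 3463 of all 10814 genes. The order of the classes by median was H4 (1.49, 10 of 12 higher), H3 (1.01, 5 of 10), H2B (1.00, 7 of 13) and H2A (0.56, 1 of 12). In bulk RNA, a larger share of cells in S phase, more histone RNA per cell and a difference in capture between libraries cannot be told apart. Protein-coding reads were 72.9%, 67.2%, 64.2% and 63.8% of the reads in genes of the RNA-seq libraries, the WT replete library having the largest share. Whether capture of histone RNA differed with it was not tested.

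Short genes as a whole also shifted in this comparison. Measured genes under 1000 nt that encode no core histone numbered 143, with a median of 0.33. Of these 143, 4.2% were called higher and 85 had an interval above 0. They include a pair of linker H1 genes, Hist1h1a and Hist1h1b, and without these the median was 0.33 and 2.84% were called higher. With the trend of the ratio on exonic length removed, the members' median was 0.58 and 14 of 47 were called higher and 1 lower. The 12 measured members of 1000 nt or more had a median of 1.05, against 0.99 for the 35 shorter ones.

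**Figure D3:**
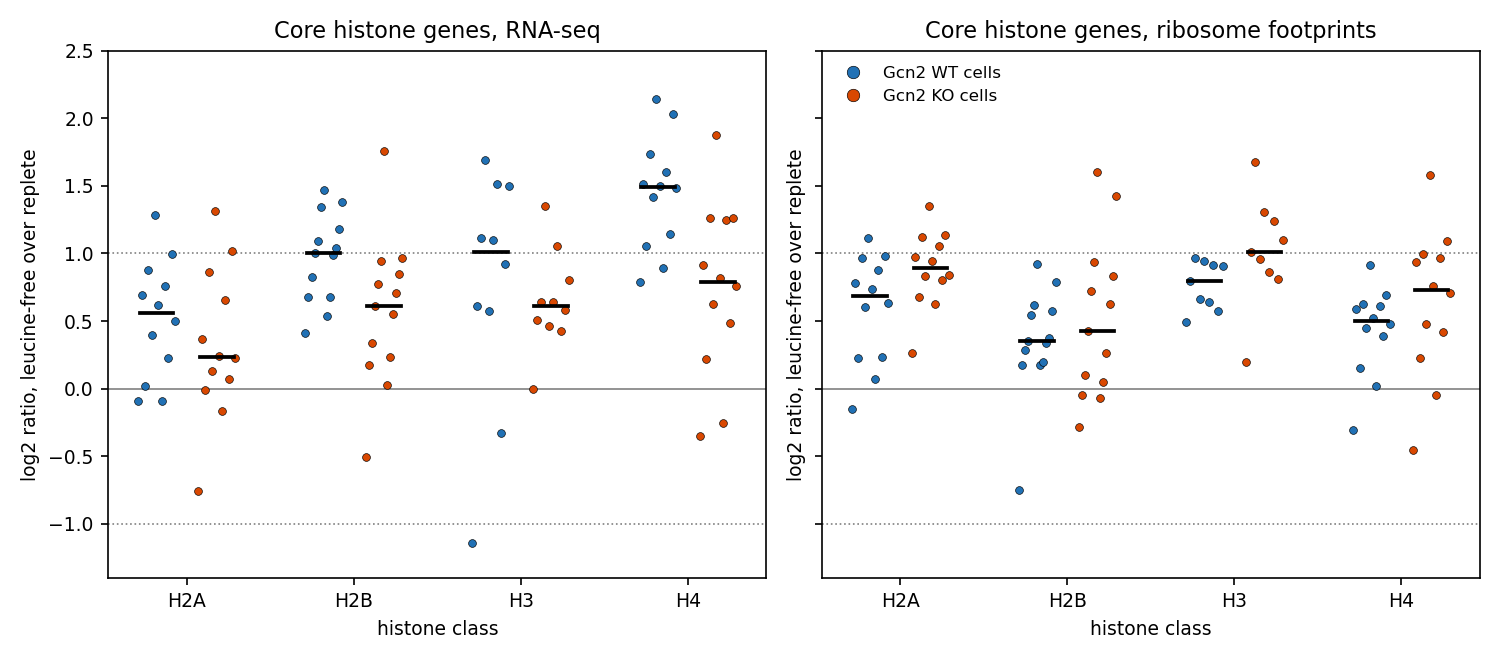
Log2 ratio of the leucine-free over the replete library for each measured core histone gene, by class, in RNA-seq (left) and footprints (right). Blue points are WT cells and orange points KO cells, bars are class medians, and dotted lines mark 2-fold. In RNA-seq the WT points of H4 stand highest, and in footprints the KO medians exceed the WT medians in every class.

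H4 genes supplied the top of this list. Hist1h4n RNA went from 28.1 to 125 CPM in WT cells, the largest ratio of all members, at 2.15 (95% interval 2.06 to 2.24). In KO cells it stood at 85.1 and 161 CPM, so that the WT replete library was lowest by itself. Hist1h4k had 1.19, 4.91, 3.42 and 2.68 CPM, a WT ratio of 2.03 (95% interval 1.59 to 2.52). Hist1h4a had 1.26, 4.22, 5.66 and 4.74 CPM, a WT ratio of 1.73 (95% interval 1.29 to 2.22). For both genes the WT replete library was again the lowest of the 4, and the KO leucine-free library stood below the KO replete one.

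Of the other genes among the 10 largest calls, Hist1h4f (1.60), Hist1h4c (1.51), Hist1h4d (1.50) and Hist1h4h (1.48) are H4, and Hist1h3f (1.69), Hist1h3d (1.52) and Hist1h3e (1.50) are H3. Hist1h4d carried the most reads of these, at 31.4, 88.8, 66.0 and 92.4 CPM. The most counted member of all, Hist1h2bh, had 54.9, 143, 91.5 and 165 CPM and a WT ratio of 1.38 (95% interval 1.31 to 1.45). Only Hist2h3c2 was called lower, on 28, 12, 52 and 42 reads, at -1.14 (95% interval -2.29 to -0.16). Hist2h2ac, the leading H2A RNA, had a WT ratio of 0.23 (95% interval 0.11 to 0.34), from 28.2 to 33.0 CPM.

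KO cells showed the same direction, with a smaller RNA median in every class. Their members' median was 0.61, with 9 of 47 called higher and none lower, against 1.77% and 1.41% of all genes. For the short genes that are no members the median was 0.10, and 7.69% were called higher (7.09% without the H1 pair). Class medians were 0.79 for H4, 0.61 for H3, 0.61 for H2B and 0.23 for H2A. The largest ratio was that of Hist4h4, the H4 gene on chromosome 6, with 39.0, 72.3, 35.7 and 131 CPM and a KO ratio of 1.88 (95% interval 1.79 to 1.97). Hist1h2bn followed with 9.74, 24.7, 15.7 and 53.1 CPM and 1.76 (95% interval 1.62 to 1.90). In each of these the KO leucine-free library exceeded all others.

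The remaining 7 calls in KO cells were Hist1h3a (1.35), Hist1h2ai (1.32), Hist1h4j (1.26), Hist1h4c (1.26), Hist1h4i (1.25), Hist1h3e (1.06) and Hist1h2ah (1.02). The lowest ratio was that of Hist1h2ad, from 2.19 to 1.29 CPM, at -0.76 (95% interval -1.35 to -0.21), which did not reach 2-fold. Across the 47 genes the WT and KO ratios gave Pearson's r of 0.092 and Spearman's rho of 0.072. Members share libraries, depth and, for neighbours, promoters, so these are descriptions. Both ratios were above 0 for 37 of the 47.

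Footprints on core histone mRNAs were also higher without leucine in most members. In WT cells their median ratio was below that of RNA, an order that turned with the length trend removed (0.60 in footprints and 0.58 in RNA) and with a trend fitted without the members removed (0.71 and 0.61). The WT median was 0.58 over 46 genes and that of all 9169 measured genes was 0.0015. Intervals lay above 0 for 39 of the 46 and for 1308 of the 9169. Past 2-fold, 1 member was called higher and none lower, against 0.883% and 0.611% of all genes. This count depends on the length trend, since 4 were called higher with it removed and 9 with the trend fitted without the members. The call without that removal was Hist1h2ae, with 149, 324, 134 and 258 CPM of footprints and a ratio of 1.12 (95% interval 0.99 to 1.24). At the bottom was Hist2h2be, on 96, 15, 53 and 29 footprints, at -0.75 (95% interval -1.65 to 0.037). The footprint medians of the classes were 0.79 for H3, 0.68 for H2A, 0.50 for H4 and 0.36 for H2B, so that H4 did not lead as it did in RNA. The short genes that are no members had a footprint median of -0.13, and 2.33% were called higher (0.787% without the H1 pair).

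In KO cells the footprint response was larger. The median was 0.83, 13 of 46 were called higher and none lower, against 1.53% and 0.611% of all genes, and the short genes that are no members stood at 0.016 with 1.55% called higher (0.787% without the H1 pair). With the length trend removed 10 were called higher in KO cells, and 14 with the trend fitted without the members. H3 had 5 of 9 called, with a median of 1.01. H2A had 4 of 12 (0.89), H4 2 of 12 (0.73) and H2B 2 of 13 (0.43). Hist1h3a had the largest ratio, with 386, 576, 275 and 878 CPM of footprints and a KO ratio of 1.68 (95% interval 1.59 to 1.76). Hist1h2bl had 193, 221, 106 and 322 CPM and 1.61 (95% interval 1.47 to 1.74). Hist4h4 had 296, 478, 264 and 787 CPM and 1.58 (95% interval 1.49 to 1.66). For all 3 the KO leucine-free library was the highest and the KO replete library the lowest of the 4.

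Among the 10 largest calls were also Hist1h2bn (1.42), Hist1h2ak (1.35), Hist1h3g (1.31), Hist1h3f (1.24), Hist1h2ah (1.14), Hist1h2ai (1.12) and Hist1h3h (1.10). The lowest footprint ratio in KO cells was that of Hist1h4k, from 140 to 102 CPM, at -0.45 (95% interval -0.62 to -0.29). Across the 46 genes the WT and KO footprint ratios gave r of 0.54 and rho of 0.48. RNA and footprint ratios across 45 genes gave r of 0.024 and rho of -0.019 in WT cells and r of 0.46 and rho of 0.42 in KO cells.

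Dividing footprints by RNA brought the H4 genes to the fore again. The WT footprint-to-RNA ratio shares the WT replete RNA library with the WT RNA ratio, so these are not independent. That RNA-seq library was the lowest in most H4 genes. The WT leucine medians of H4 were 1.49 in RNA and 0.50 in footprints. In WT cells the leucine log2 ratio of footprints over RNA had a median of -0.46 over 45 members, with 1 called higher and 9 lower, against 1.14% and 1.76% of all 9097 genes. Of the 9, 7 were H4 genes (class median -1.08), led by Hist1h4k (-2.34 (95% interval -2.81 to -1.87)) and Hist1h4n (-1.55 (95% interval -1.71 to -1.40)). The other H4 calls were Hist1h4h (-1.47), Hist1h4a (-1.21), Hist1h4f (-1.12), Hist1h4d (-1.10) and Hist1h4c (-1.06). Both remaining calls were H2B genes, Hist2h2be (-1.16) and Hist1h2bg (-1.14). Hist1h3b was called higher (1.12 (95% interval 0.68 to 1.57)). The short genes that are no members had a median as low, -0.49, with 9.02% called lower, and with the length trend removed the members' median was -0.015, with 3 called higher and 2 lower.

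KO cells had a median of 0.079 (0.17 with the trend fitted without the members removed), with 4 members called higher and 1 lower, against 1.57% and 1.43% of all genes. Those higher were Hist1h2ad (1.60), Hist1h2ak (1.22), Hist1h2ab (1.21) and Hist1h4a (1.01). Hist2h2be was lower in KO cells as well, at -1.22 (95% interval -2.05 to -0.39), on few footprints. This gene has a long annotated exon and 1.62, 2.16, 1.25 and 2.42 CPM of RNA. H2A had the highest class median in both genotypes, 0.16 in WT and 0.61 in KO cells.

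Compared directly in replete medium, KO cells held more RNA than WT cells of 7 H4, 4 H3 and 1 H2A gene. Over 47 genes the median log2 ratio of KO over WT was 0.35, with 12 called higher and 1 lower, against 4.36% and 2.51% of all genes. With every member of at least 1 count kept, that median was 0.13. With the length trend removed 8 were called higher and 2 lower. H4 gave 1.08 (7 of 12 higher), H3 0.39 (4 of 10), H2B 0.12 (none of 13) and H2A -0.26 (1 higher and 1 lower of 12). This comparison and the leucine comparison in WT cells share the WT replete library, which was the lowest in most H4 genes. Hist1h4a had the largest ratio (2.16 (95% interval 1.73 to 2.63)), and Hist1h2ai the lowest, from 1.29 to 0.574 CPM (-1.14 (95% interval -1.95 to -0.42)). The next largest were Hist1h2ab (1.62), Hist1h4n (1.60), Hist1h3h (1.54), Hist1h4k (1.51), Hist1h3f (1.32), Hist1h4c (1.17), Hist1h3g (1.15) and Hist1h4h (1.08).

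Without leucine the genotypes differed little on balance. The RNA median of KO over WT was 0.074, and 4 genes were called higher and 7 lower, against 5.26% and 3.12% of all genes. Lower in KO cells were Hist1h4b (-1.69), Hist1h2ad (-1.50), Hist1h2bp (-1.46), Hist1h2bk (-1.14), Hist1h2bc (-1.03), Hist1h2an (-1.02) and Hist1h3d, which lay at the 2-fold bound. Higher were Hist2h3c2 (2.15), Hist1h4i (1.18), Hist1h3g (1.18) and Hist1h2bn (1.10). The largest ratios rest on few reads, 12 in WT and 42 in KO cells for Hist2h3c2 and 73 and 17 for Hist1h4b. With a mean count of at least 100, 3 of these calls were no longer measured. The split turned with the length trend removed, to 8 higher and 3 lower and a median of 0.24, so it gives no direction for the family.

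Footprints of core histones were slightly lower in KO than in WT cells in replete medium. The median was -0.28, and 41 of 46 ratios were below 0, as were 4560 of all 9169. Of the members 1 was called lower and none higher, against 0.829% and 2.16% of all genes. In leucine-free medium the median was -0.067 (0.0017 with total counts), again with 1 called lower and none higher, against 2.33% and 4.93%. With the length trend removed the replete median was -0.16 and the call in replete medium was lost. The called gene was the same in both media before that removal. Hist1h2bp, an H2B gene, had 60.2, 73.6, 29.2 and 27.8 CPM of footprints. Its ratio was -1.04 (95% interval -1.29 to -0.80) in replete and -1.40 (95% interval -1.75 to -1.06) in leucine-free medium. The highest footprint ratios were those of Hist1h4b in replete (0.18 (95% interval -0.17 to 0.52)) and Hist4h4 in leucine-free medium (0.72 (95% interval 0.62 to 0.82)). Against the higher RNA of H4 genes in KO cells in replete medium, H4 footprints had a KO over WT median of -0.32.

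The leucine response itself was compared between genotypes as the WT minus the KO log2 ratio. In RNA the median difference was 0.41, with 10 of 47 genes higher in WT and 3 lower, against 2.21% and 2.45% of all genes. With the length trend removed the split turned to 4 higher and 5 lower and the median was 0.19. The widest gaps were those of Hist1h4k (2.39 (95% interval 1.79 to 2.98)), Hist1h4a (1.99 (95% interval 1.45 to 2.52)) and Hist1h2ab (1.44 (95% interval 1.01 to 1.88)). Further genes higher in WT were Hist1h2bp (1.33), Hist1h2ad (1.26), Hist1h4n (1.23), Hist1h3d (1.05), Hist1h3f (1.05), Hist1h4d (1.01) and Hist1h2ac (1.01). Those lower were Hist2h3c2 (-1.14), Hist1h3b (-1.13) and Hist1h2ah (-1.11). In footprints the median difference had the opposite sign, -0.17 (-0.057 with the length trend removed), with none higher and 2 lower, against 1.65% and 3.03%. They were Hist1h2bl (-1.41 (95% interval -1.60 to -1.22)) and Hist1h3a (-1.10 (95% interval -1.22 to -0.98)), and the highest footprint difference was that of Hist1h4b (0.66 (95% interval 0.083 to 1.23)).

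H2A and H2B genes mostly stand head to head, and 12 such pairs had starts 176 to 306 nt apart. In 9 pairs both genes were measured. By uniquely mapped reads per kb, partners differed in RNA level although their starts lie close. Hist1h2bj exceeded Hist1h2ag in all 4 libraries, while Hist2h2ac exceeded Hist2h2be (0.618, 0.825, 0.478 and 0.923 CPM per kb). The part of unique sequence in these differences was not tested. Leucine RNA ratios were larger for the H2B partner in 6 of 9 pairs in WT and 6 of 9 in KO cells. For footprints the H2B partner had the larger ratio in 2 of 9 pairs in WT and 3 of 9 in KO cells, and the median H2B minus H2A difference was -0.49 and -0.57. In RNA these medians were 0.50 and 0.18.

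**Figure D4:**
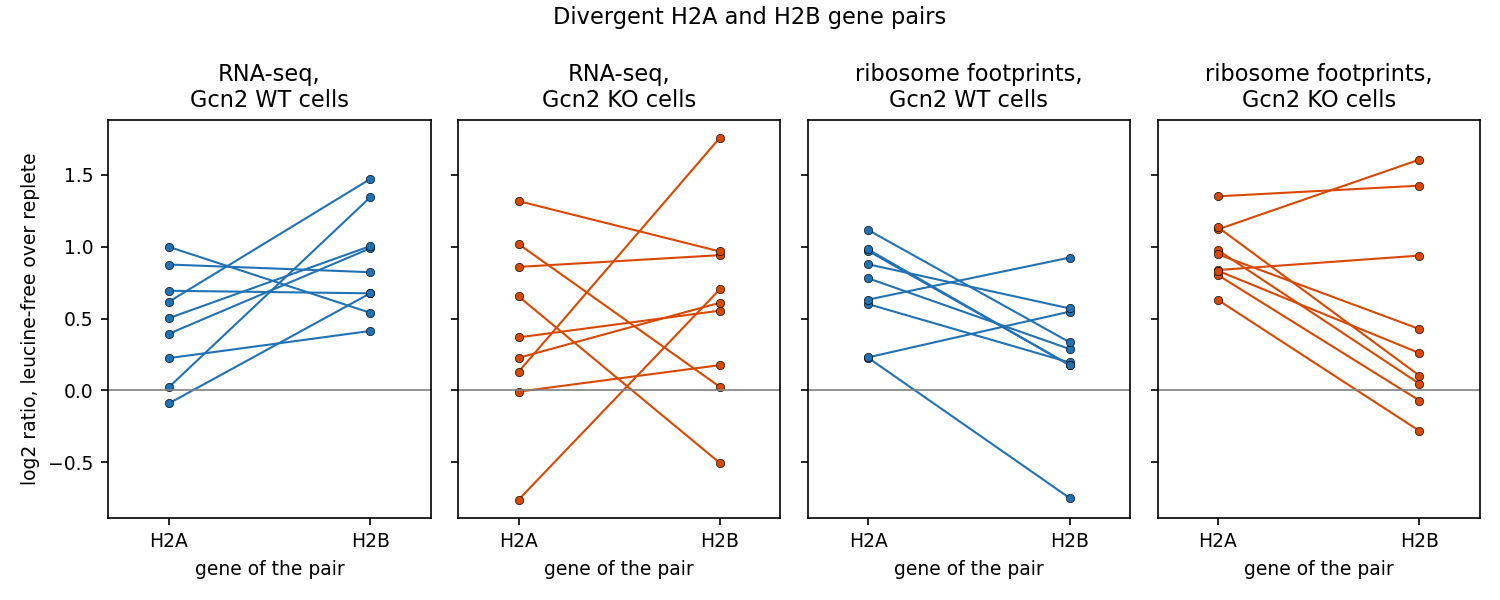
Log2 ratio of the leucine-free over the replete library for the 9 head-to-head H2A and H2B gene pairs with both genes measured, in each assay and genotype. A line joins the partners of 1 pair. In the footprint panels most lines run down from H2A to H2B, and in the RNA panels 6 of 9 run up.

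Linker H1 histones, which bind the DNA between nucleosomes and whose main genes lie in the same chromosome 13 cluster, stood beside the core genes. In WT cells RNA was called higher for 4 of 7 measured H1 genes (median 1.28), against 0.842% of all genes. Hist1h1b had 66.9, 205, 68.9 and 125 CPM of RNA and a WT ratio of 1.61 (95% interval 1.55 to 1.68). Hist1h1c (1.34), Hist1h1d (1.28) and Hist1h1a (2.25) were the others. KO cells had 3 of 7 higher, Hist1h1a, Hist1h1d (1.40) and Hist1h1c (1.34), with a median of 0.89, against 1.77% of all genes. Hist1h1a had only 54, 251, 2 and 63 RNA reads, so its KO ratio of 4.97 (95% interval 3.37 to 8.36) rests on 2 reads in replete medium. Its KO over WT ratio was -4.31 in replete and -1.60 (95% interval -2.02 to -1.20) in leucine-free medium. H1 footprints were called higher for Hist1h1a and Hist1h1b (1.04) in WT cells, against 0.883% of all genes. In KO cells those of Hist1h1a and Hist1h1d (1.06) were called higher, against 1.53%. H1fx, a replication-independent H1, had the lowest leucine RNA ratio in both genotypes (0.023 and 0.10). In WT replete cells Hist1h1b, Hist1h1c, Hist1h1d and Hist1h1e had 1546, 1641, 1325 and 1386 CPM of footprints. Their RNA stood at 66.9, 28.4, 37.3 and 108 CPM. Footprints and RNA were 12.8 and 1.29 CPM for Hist1h1a, 33.0 and 4.69 for H1fx, and closer for H1f0, at 156 and 89.1. The place of these genes among all footprint-to-RNA ratios was not tested.

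Genes of DNA replication and S phase did not share the higher RNA median of the core histones. Their leucine medians were 0.11 in WT and -0.013 in KO cells, where the core histones had 1.00 and 0.61. None of 47 was called in RNA by leucine withdrawal in either genotype. Of all genes 0.842% were called higher and 0.86% lower in WT and 1.77% and 1.41% in KO cells, so few calls would fall on 47. The RNA ratios ran from -0.57 (E2f2) to 0.62 (Dut, which keeps uracil out of DNA) in WT cells. Their footprint median was -0.25 in KO cells, with 36 of 46 below 0, where that of the core histones was 0.83. Of all 9169 genes measured in footprints, 4634 were below 0 in that comparison. E2f1, a transcription factor of S phase entry, had lower footprints in the WT minus KO difference (-1.19), as had the cyclin gene Ccne1 (-1.10). Of all genes 3.03% were called lower in that difference, and E2f1 had 237, 42, 158 and 162 footprints. Footprints of the polymerase gene Pola1 were lower in KO than in WT cells without leucine (-1.10) and those of E2f1 higher (1.09). Of all genes 2.33% were called lower and 4.93% higher there, so these few calls give no direction for the list.

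The factors that process histone mRNA stayed near all other genes, with medians of 0.023 and 0.074 in RNA for 21 measured of 22. Slbp had 136, 163, 156 and 212 CPM of RNA, with ratios of 0.26 (95% interval 0.21 to 0.31) in WT and 0.44 (95% interval 0.39 to 0.49) in KO cells. Zfp473, whose product is part of the U7 machinery that cuts the 3′ end, was the only gene called in RNA, on 90, 63, 51 and 2 reads, with a KO ratio of -4.11 (95% interval -7.45 to -2.44). Snrpf, encoding a core protein of small nuclear ribonucleoproteins, had higher footprints in KO cells (1.24 (95% interval 1.06 to 1.43)). Of the histone mRNA decay genes, none of 17 was called by leucine in RNA and none of the 16 measured in footprints. Leucine calls were rare among all genes, at 0.842% higher and 0.86% lower in WT and 1.77% and 1.41% in KO RNA. In footprints these shares were 0.883% and 0.611% in WT and 1.53% and 0.611% in KO cells. Few calls would thus fall on either list. Lsm1, of the ring that binds RNA 3′ ends, was called in the WT minus KO footprint difference (-1.04), where 3.03% of all genes were called lower. Lsm7 RNA was lower in KO than in WT cells without leucine (-1.09 (95% interval -1.86 to -0.40)), against 3.12% of all genes.

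Histone chaperones and acetyltransferases gave no RNA call in 22 genes in any comparison. Of all genes, 0.842% to 5.26% were called higher and 0.86% to 3.12% lower in the RNA comparisons. The list had 1 footprint call, Anp32e, a chaperone that removes the H2A.Z variant. It was lower in KO than in WT cells without leucine (-1.17 (95% interval -1.33 to -1.02)), where 2.33% of all genes were called lower. Histone variants listed as replication-independent had RNA medians of 0.20 in WT and 0.27 in KO cells over 8 measured of 9. H3f3b, encoding H3.3, was called higher in KO cells, with 62.8, 82.5, 56.5 and 140.2 CPM and 1.31 (95% interval 1.24 to 1.39). H2afj was called higher in KO cells too, on 107, 104, 32 and 92 reads (1.81 (95% interval 1.23 to 2.46)), the KO replete library being low. H2afv, encoding an H2A.Z form, was higher in KO than in WT cells in both media (1.27 and 1.10). Of all genes, 1.77% were called higher in RNA by leucine withdrawal in KO cells. In KO over WT cells 4.36% were called higher in replete and 5.26% in leucine-free medium.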

How the data were processed

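RNA-seq and ribosome profiling libraries of Gcn2 WT and KO KRPC-A cells were used, 1 for each genotype, medium and assay. The deposited files hold raw gene counts. Per the file headers, featureCounts 1.6.4 counted reads over Ensembl release 96 exons, and no setting for strand, for reads mapping to several places or for reads over several genes is recorded, so the defaults apply (strand ignored, both kinds of read left out). Cutadapt, STAR, featureCounts, Subread and GRCm38 are named by the submitters' processing notes. No source used here gives RNA selection or strandedness, so reads of overlapping antisense genes could not be separated.

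Each file lists 55536 genes, of which 55450 (99.85%) took a symbol by Ensembl identifier, and class came from RefSeq (GRCm38, patch 6). Factors were trimmed means of M-values (TMM) over measured protein-coding genes within an assay (edgeR 4.0.16, R 4.3.3), 0.980 to 1.03. CPM is the count over the scaled protein-coding total. Log2 ratios used a prior of 0.5 normalised counts, with exact conditional binomial intervals for a pair of libraries and Wald intervals for the WT minus KO difference and footprints over RNA. Python 3.11.15, numpy 2.4.6, pandas 2.3.3, scipy 1.17.1, statsmodels 0.14.6 and matplotlib 3.10.9 were used, and the calculation was tested on simulated data.

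The members and lists were chosen with earlier results of these data known. Named were the 3 members per class with most RNA per kb, the highest and lowest ratio and up to 10 calls of each comparison, the testis forms, Hist2h2be, Hist3h2a, Hist3h2ba, Hist4h4, and called or extreme list genes. Hist1h2bh, Hist1h4c, Hist1h2ai and Hist2h2ac were also given where their values were singled out after being seen. Alternatives were other scalings, filters, priors and length trends, with DESeq2 1.42.0 for its size factors. The length trend fitted without the members and the short-gene background without linker H1 genes were chosen after seeing the data.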

Additional observations from a re-analysis of the deposited data

Results flagged for a closer look

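Hist1h2ad RNA had a WT ratio whose interval lay above 0 (from 2.59 to 3.68 CPM, 0.50 (95% interval 0.14 to 0.87)) and a KO ratio whose interval lay below 0 (-0.76 (95% interval -1.35 to -0.21)), a WT minus KO difference of 1.26. Hist1h2bp RNA did the same, from 6.71 to 11.9 CPM in WT (0.82 (95% interval 0.61 to 1.04)) and from 6.13 to 4.32 CPM in KO cells (-0.50 (95% interval -0.82 to -0.19)), a difference of 1.33. Neither difference could be tested between cultures, since each group is 1 library. Both genes are 1 partner of a head-to-head pair.

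Pseudogenes were left out of the comparisons, and a pair of them carried footprints above the floor of 3 counts. Hist3h2bb-ps on chromosome 11 had 87, 45, 59 and 69 footprints, 260 in all, on 4, 42, 0 and 6 RNA reads. Hist1h2al on chromosome 13 had 13, 8, 7 and 5 footprints, 33 in all, and no RNA read. Reads that fit more than 1 place were not counted, and whether these footprints come from the annotated copies was not tested.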

How the results depend on the processing

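No paired analysis was possible because each group is 1 library. With the length trend removed, RNA medians for leucine were 0.58 in WT and 0.45 in KO cells, WT RNA calls were 15, WT footprint calls 4, the KO over WT footprint median in replete medium -0.16 with 0 calls, the footprint WT minus KO calls 1 and the WT footprint-to-RNA calls 5. With a trend fitted without the members, the WT RNA median was 0.61 with 15 calls, the WT footprint median 0.71 with 9 calls, the KO over WT footprint median without leucine -0.14, the footprint WT minus KO calls 1, and the WT footprint-to-RNA calls 5 (4 higher and 1 lower). With a mean count of at least 100, KO footprint-to-RNA calls were 3. The WT footprint-to-RNA median was 0.027 with the trend fitted without the members, and the KO over WT footprint median without leucine was 0.0017 with total counts. These last 2 medians changed sign. By a limit of 1.5 times the KO over WT RNA medians also moved, to 0.13 in replete medium with every member of at least 1 count kept and, without leucine, to 0.12 with a mean count of at least 10 and 0.24 under both length trends. The RNA WT minus KO median moved to 0.19 and 0.20 under those trends and that of footprints to -0.057 and -0.064, the KO over WT footprint median without leucine to -0.12 and the WT footprint-to-RNA median to -0.015 with the trend removed, and the KO footprint-to-RNA median to 0.16 with total counts and 0.17 with the trend fitted without the members. Both length trends gave 8 higher and 2 lower RNA calls in KO over WT cells in replete medium, 8 and 3 without leucine, and 4 and 5 for WT minus KO. With a mean count of at least 100, WT minus KO RNA calls were 9 higher and 1 lower, and at a minimum of 10 or 1, KO footprint-to-RNA calls were 4 and 2. The other 78 medians kept their sign and stayed within 1.5 times, and the other 77 counts kept their size and split by the same limits. In summed RNA of KO over WT cells, H2A in replete medium gave -0.16, and 0.12 without Hist2h2ac, and H3 without leucine gave 0.31, and -0.033 without Hist1h3h. Intervals cover counting error, so differences between cultures are not covered, and the WT leucine-free footprint library, the shallowest, limits its ratios most.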
